A study of Mus musculus with 58 samples.

Results

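The injury by SB239063 interaction was described in 28 of the 58 mouse somatosensory cortex libraries of the study, those of cohorts F1, F2, M1 and M2, which are the cohorts that hold all 4 conditions. For each gene it is the difference between SB239063 (SB) and vehicle in injured mice minus the same difference in sham mice, with the cohort as a block. A positive value means that SB mice stood higher against vehicle mice after injury than after sham procedures. The contrast asks whether the response to the drug depended on the injury.

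All mice were C57BL/6J of both sexes and 2 to 4 months old. The injured mice received a closed head injury (CHI) on each of 5 days (5xCHI), and the sham mice received 5 sham procedures. An intraperitoneal injection followed each procedure by 30 min and held either SB at 20 mg/kg in physiological saline or the saline alone (vehicle). Tissue was taken at the chronic stage, roughly 1 month on. The study names about 18 and 34 days for it, and the labels do not tie a mouse to a day. The 4 conditions comprised 9 injured SB mice (5 female, 4 male), 9 injured vehicle mice (5 female, 4 male), 5 sham SB mice (3 female, 2 male) and 5 sham vehicle mice (3 female, 2 male). In F1 there were 3 mice of each injured condition and 2 of each sham condition. Cohorts F2, M1 and M2 each held 2 mice of each injured condition but a single sham SB and a single sham vehicle mouse. The labels describe separate samples, which were treated as separate animals. If some came from 1 animal, the spread behind the p-values would be in part technical.

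SB239063 inhibits the alpha and beta forms of p38 MAPK, encoded by Mapk14 and Mapk11. These stress-activated kinases are switched on by upstream kinases such as Map3k5 (ASK1) and by adaptors such as Traf2, act through downstream kinases and transcription factors, and are switched off by dual-specificity phosphatases. In brain the pathway is known for its part in cytokine production by microglia and in the responses of astrocytes and neurons to stress. The drug acts on kinase activity, which RNA levels do not measure.

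Counts per library over the 9636 genes of the table totalled 29315398 to 49158277. Markers of cortex were present in all 28 libraries: the glutamate transporter gene Slc17a7 lay between 1125 and 1633 CPM (counts scaled to the library's total as adjusted by the TMM method), the upper-layer gene Cux2 between 64.5 and 199, and the interneuron gene Gad1 between 350.5 and 499.0. A pair of libraries stood apart once the cohort means had been removed. Female sham vehicle replicate 1 of F2 scored 29.1 on the first principal component, which held 28.0% of the variance, and the next library scored 10.4. Male sham vehicle replicate 4 of M1 scored highest on the second component, at 15.5 (17.4% of the variance). It was not clearly apart there, since the female injured vehicle replicate 9 of F2, which was kept, scored 14.3. Each of these sham vehicle libraries is the sole sham vehicle library of its cohort, so main results are given with all 28 libraries and again with the remaining 26, a choice made after seeing the data. Without them, F1 and M2 are the cohorts that hold both sham conditions, and the sham SB libraries of F2 and M1 enter through the cohort terms. A fit of F1 and M2 alone, also chosen after seeing the data, is given for some results. Where it is not given, the value may differ too.

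**Figure D1:**
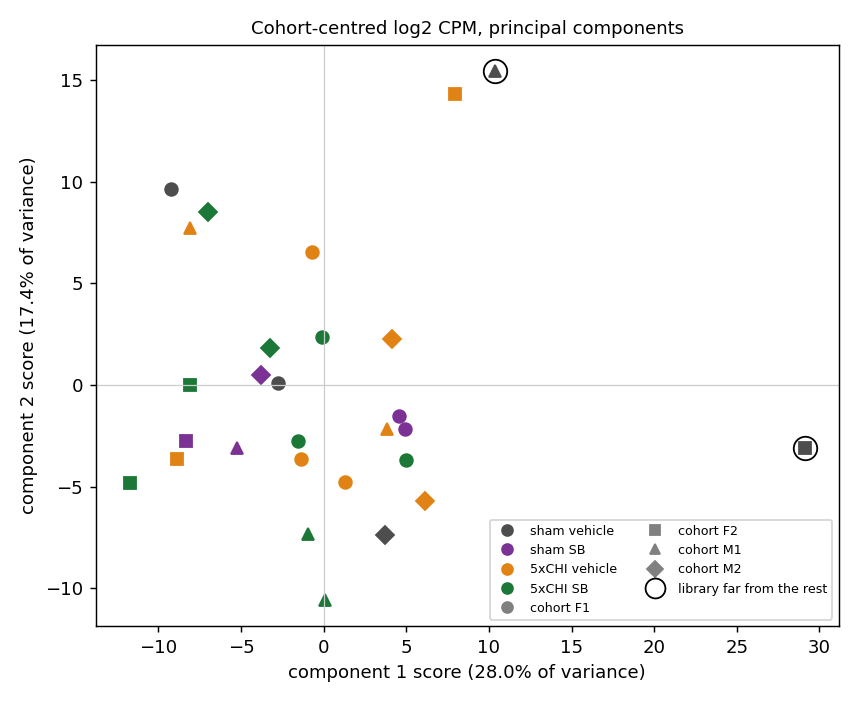
Scores of the 28 libraries on the first 2 principal components of log2 CPM after centring each cohort, with the condition as colour and the cohort as symbol. Rings mark the 2 sham vehicle libraries called those that stand apart, at 29.1 on component 1 and at 15.5 on component 2. On component 2 the next library lies at 14.3.

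No gene passed the interaction test at an adjusted p of 0.05 (edgeR quasi-likelihood test, 0 of 9636 genes, 0%). At an unadjusted p under 0.05 there were 120 genes (1.25%), 52 higher and 68 lower, where 481.8 would be expected if no gene differed. The adjusted p was at least 0.9997 for each gene. DESeq2 also called 0 genes (144 at unadjusted p under 0.05), as did limma voom (342). Without the 2 libraries that stand apart, 0 genes passed and 182 had an unadjusted p under 0.05. The median standard error (SE) of the interaction was 0.11 on the log2 scale, and the 95% interval lay within a 1.5-fold change in either direction for 96.4% of genes. Larger interactions than that were therefore outside the interval of most listed genes. The median half-width of the interval was 0.23 on the log2 scale. Interactions smaller than the half-width of their gene were not resolved.

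Among the 10 genes of smallest p with a positive interaction, 9 had a positive value within each of the 4 cohorts, and so did 9 of the 10 with a negative interaction on their side. Because these genes were picked by the interaction over the same libraries, the counts are a description only. For each of the 20, the SB difference over 28 libraries was larger in size among sham mice than among injured mice. With 26 libraries this held for 9 of the 10 positive genes, Ccpg1 being the exception, and for 10 of the 10 negative ones. Of the 10 positive genes all stood lower in sham SB than in sham vehicle mice, and all 10 negative genes stood higher. These counts too are a description only, since the interaction picked the genes and its sham part is the less precise one. None of the 20 passed the interaction test.

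The smallest p belonged to Foxn2, a forkhead transcription factor gene. In sham vehicle mice its level was 18.9 and 16.7 CPM in F1, 16.7 in F2, 18.9 in M1 and 19.0 in M2. In sham SB mice it was 15.3 and 13.6 in F1, 14.4 in F2, 14.8 in M1 and 19.7 in M2. Injured vehicle mice ran from 15.3 to 18.6 with a median of 16.7 CPM, and injured SB mice from 17.3 to 20.7 with a median of 20.1. Thus 4 of 5 sham SB libraries lay below all sham vehicle libraries, 7 of 9 injured SB libraries lay above all injured vehicle libraries, and the ranges of both pairs overlapped. The interaction of Foxn2 was 0.42 ± 0.10 (log2, SE; unadjusted p = 2.13e-04 and adjusted p = 0.9997, edgeR), and 0.44 ± 0.11 without the 2 libraries. With all 58 libraries of the study it was 0.26. Within the cohorts it was 0.43 in F1, 0.42 in F2, 0.60 in M1 and 0.24 in M2. The SB difference was 0.21 ± 0.060 in injured and −0.22 ± 0.080 in sham mice. Over the alternative ways of fitting, the injured difference ran from 0.0072 to 0.32. Read along the other factor, the injury difference was 0.32 ± 0.071 in SB mice and −0.10 ± 0.070 in vehicle mice. In SB mice that injury difference had an adjusted p of 0.954 with all libraries (edgeR). The adjusted p was 0.0484 (edgeR) when male sham SB replicate 1 of M2, the library at 19.7 CPM, was left out. Of all single libraries left out, that one gave the highest difference, 0.41, and the lowest was 0.30. The alternative ways of fitting gave 0.22 to 0.40. Because it comes from the extreme of the left-out libraries, the 0.0484 is a description only.

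Ccpg1, which encodes a receptor for turnover of the endoplasmic reticulum by autophagy, had the next smallest p among positive genes. Its sham vehicle levels were 9.84 and 12.3 CPM in F1, 13.1 in F2, 11.4 in M1 and 8.80 in M2. Its sham SB levels were 12.3 and 8.84 in F1, 11.5 in F2, 8.70 in M1 and 7.40 in M2. Injured vehicle libraries spanned 9.00 to 11.6 with a median of 10.2, and injured SB libraries 9.44 to 14.0 with a median of 11.9 CPM. The sham ranges overlapped, with 2 of 5 sham SB libraries below all sham vehicle libraries, and 5 of 9 injured SB libraries exceeded all injured vehicle libraries. The interaction of Ccpg1 was 0.37 ± 0.11 (SE), and 0.31 ± 0.12 without the 2 libraries, with values of 0.28, 0.47, 0.57 and 0.31 in F1, F2, M1 and M2.

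Alg14 encodes a subunit of an enzyme that builds the lipid-linked sugar chain for protein glycosylation. Sham vehicle libraries gave 9.67 and 9.04 CPM in F1, 11.8 in F2, 10.2 in M1 and 9.76 in M2. For sham SB the levels were 8.13 and 7.07 in F1, 9.84 in F2, 7.53 in M1 and 8.07 in M2, so that 4 of 5 lay below the whole sham vehicle range. The injured conditions overlapped fully, at 7.24 to 11.2 (median 9.46) for vehicle and 8.34 to 10.6 (median 9.91) for SB. The interaction was 0.37 ± 0.13 (SE), and 0.27 ± 0.14 without the 2 libraries.

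Clk4 encodes a kinase of splicing factors. It stood at 67.7 and 67.1 CPM in F1, 92.3 in F2, 96.2 in M1 and 68.3 in M2 among sham vehicle mice. Among sham SB mice it stood at 65.9 and 51.4 in F1, 81.9 in F2, 61.0 in M1 and 58.2 in M2. The 2 highest sham vehicle values belonged to the 2 libraries that stand apart, and 4 of 5 sham SB libraries lay below all sham vehicle libraries. Injured vehicle mice ran from 64.4 to 100.2 (median 76.7) and injured SB mice from 62.9 to 105 (median 79.5). The interaction of Clk4 was 0.27 ± 0.098 (SE), and 0.20 without the 2 libraries. It was 0.75 within M1 and at most 0.20 within the other cohorts, 0.14 without M1 and 0.12 in F1 and M2 alone. Its sham part was −0.30 ± 0.078, and its injured part was −0.030.

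**Figure D2:**
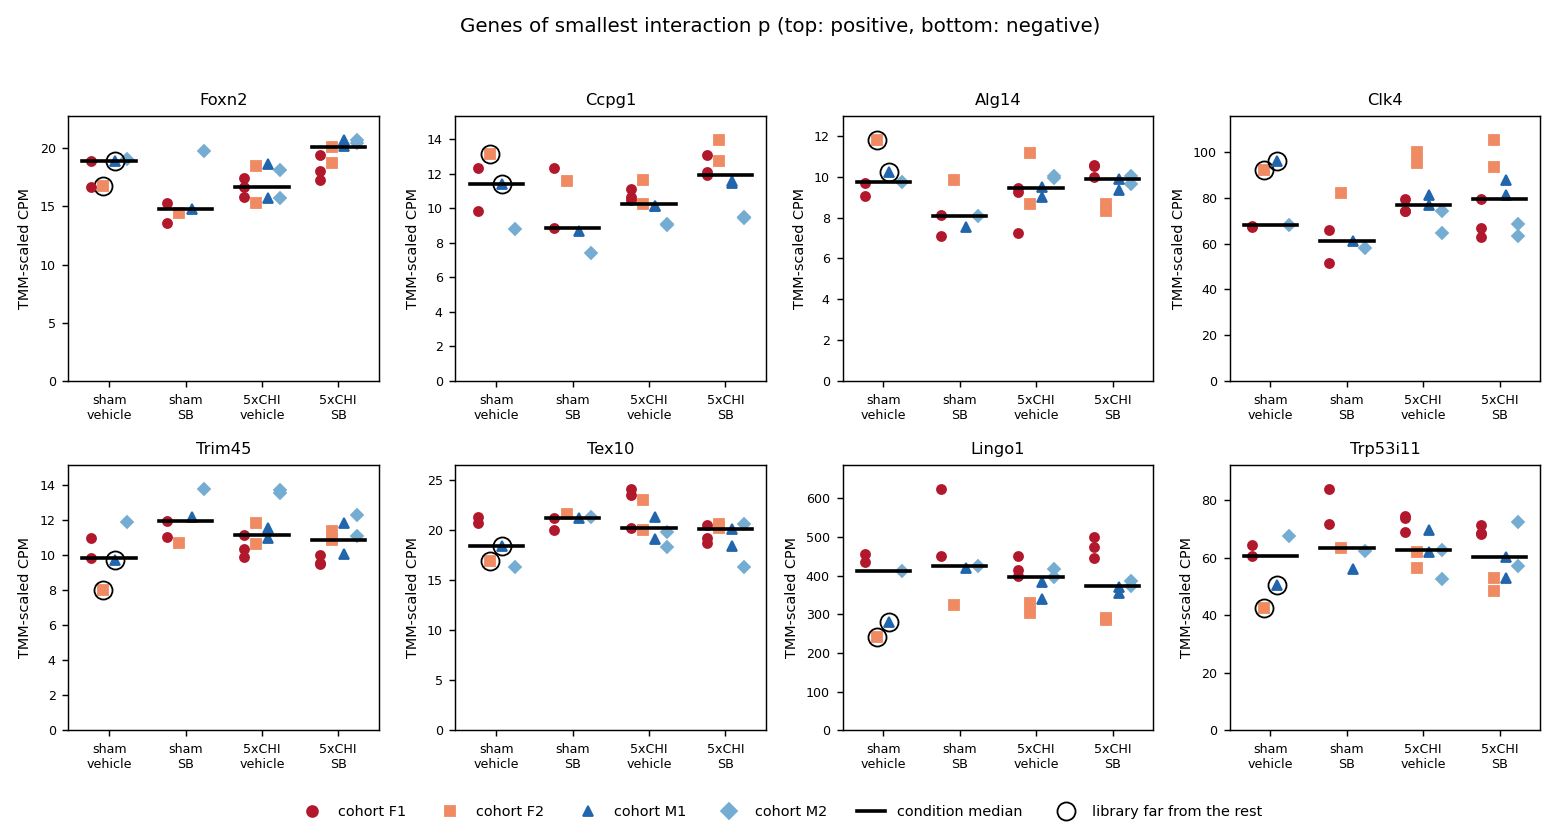
TMM-scaled CPM of the 4 genes of smallest p with a positive interaction (top) and with a negative one (bottom) in each of the 28 libraries, by condition, with the cohort as symbol and black bars for condition medians. Rings mark the 2 libraries that stand apart. Foxn2 shows 4 of 5 sham SB points under the sham vehicle points and 7 of 9 injured SB points over the injured vehicle points.

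Of the other positive genes, Mppe1 (an enzyme that remodels GPI anchors) had an interaction of 0.31, Glrx (glutaredoxin, which reduces protein disulfides) 0.29 and Med20 (a Mediator subunit) 0.30. Brdt, a bromodomain gene best known from testis, was at 0.26, and Pnn, a splicing-associated nuclear protein gene, at 0.25. Ezh2, the histone methyltransferase of Polycomb repression, was at 0.36 ± 0.14 (SE), with −0.40 ± 0.11 in sham and −0.036 ± 0.083 in injured mice. Ezh2 was at 0.24 and Mppe1 at 0.17 without the 2 libraries.

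On the negative side the smallest p was that of Trim45, a gene of the TRIM ubiquitin ligase family. Levels in sham vehicle mice were 9.80 and 10.9 CPM in F1, 8.01 in F2, 9.72 in M1 and 11.9 in M2. Levels in sham SB mice were 11.0 and 11.9 in F1, 10.7 in F2, 12.2 in M1 and 13.8 in M2. In each cohort both sham SB and sham vehicle were present, and sham SB stood higher in all 4, while across cohorts the ranges overlapped. Injured vehicle libraries ran from 9.89 to 13.7 (median 11.1) and injured SB libraries from 9.51 to 12.3 (median 10.8). The interaction of Trim45 was −0.34 ± 0.10 (SE), and −0.23 without the 2 libraries.

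Tex10 encodes a nuclear protein of a complex needed for ribosome assembly. Its sham vehicle levels were 20.7 and 21.3 CPM in F1, 16.9 in F2, 18.4 in M1 and 16.3 in M2. All 5 sham SB libraries lay close together, at 20.0 and 21.2 in F1, 21.6 in F2, 21.2 in M1 and 21.3 in M2. Injured vehicle mice ran from 18.3 to 24.1 (median 20.2) and injured SB mice from 16.3 to 20.6 (median 20.1). The interaction was −0.29 ± 0.098 (SE), and −0.24 without the 2 libraries, negative within each cohort, and −0.16 with all 58 libraries.

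Lingo1 encodes a neuronal membrane protein that, with the Nogo receptor, restrains axon growth and myelination. Sham vehicle mice had 455 and 435 CPM in F1, 240.3 in F2, 281 in M1 and 412 in M2. Sham SB mice had 452 and 624 in F1, 324 in F2, 419 in M1 and 425 in M2. The F2 and M1 sham vehicle values, from the 2 libraries that stand apart, were the lowest of all 28. Injured vehicle libraries spanned 304 to 451 (median 397) and injured SB libraries 286 to 500.4 (median 373), and their SB difference was 0.0012 ± 0.063. The interaction of Lingo1 was −0.31 ± 0.10 (SE), and −0.18 without the 2 libraries, with −0.57 in both F2 and M1 against −0.090 in F1 and −0.14 in M2. With all 58 libraries Lingo1 was at −0.16.

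Trp53i11, a gene named for its induction by the tumour suppressor Trp53, stood at 60.6 and 64.5 CPM in F1, 42.4 in F2, 50.4 in M1 and 67.7 in M2 in sham vehicle mice. It stood at 71.7 and 84.0 in F1, 63.5 in F2, 56.2 in M1 and 62.5 in M2 in sham SB mice. The injured conditions overlapped, at 52.7 to 74.6 (median 62.7) for vehicle and 48.5 to 72.6 (median 60.3) for SB. The interaction was −0.33 ± 0.11 (SE), and −0.23 without the 2 libraries. With all 58 libraries it was −0.18, and in the male cohorts alone −0.025. Its sign differed among cohorts, at −0.37, −0.80 and −0.37 in F1, F2 and M1 but 0.28 in M2.

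The remaining negative genes included Rtn4rl2, a Nogo receptor homologue (−0.35), the muscarinic acetylcholine receptor gene Chrm1 (−0.23) and Gnpda1, an enzyme of amino sugar metabolism (−0.22). Pomk, a kinase of the sugar chain on dystroglycan, was at −0.23, Mvb12b, a subunit of an endosomal sorting complex, at −0.21 and Ankrd34a at −0.20. Rtn4rl2 was at −0.29 and Chrm1 at −0.095 without the 2 libraries. Chrm1 was at −0.42 and −0.59 within F2 and M1, at −0.048 within F1 and at −0.0030 within M2.

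Genes with 1 sign in all 4 cohorts were also ranked by size. Positive values in 4 of 4 cohorts were found for 390 genes (4.05%) and in 0 of 4 for 423 genes (4.39%). Aox1, an aldehyde oxidase gene, led the positive ones at 0.47 ± 0.24 (SE), ahead of Foxn2 and of the calcium-binding protein gene Necab2 at 0.41 ± 0.27. Leaving out female sham vehicle replicate 2 of F1, the library with 22.0 CPM where the other sham vehicle libraries had 7.58 to 9.32, moved Aox1 to 0.17. Necab2 was at 0.10 without the 2 libraries that stand apart. On the negative side were Gnb4, a G protein subunit gene, at −0.51 ± 0.35, Cpne4, a copine gene, at −0.47 ± 0.23, and the ligand gene Wnt4 at −0.43 ± 0.23. For Wnt4, the value within F2 was −1.78, and F2 sham vehicle stood at 7.48 CPM where the other sham vehicle libraries had 20.4 to 25.3. Gnb4 was at −0.34, Cpne4 at −0.32 and Wnt4 at −0.23 without the 2 libraries.

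None of the measured genes of the p38 pathway lists had an unadjusted p under 0.05 in the interaction, a share that at 1.25% of all genes says nothing particular about so few members. Mapk14, the main p38 gene of the brain, stood at 99.3 to 118 CPM in sham vehicle, 112 to 126 in sham SB, 104 to 120.4 in injured vehicle and 99.0 to 127 in injured SB libraries. Its interaction was −0.042 ± 0.070 (SE). Mapk11 had 70.6 to 83.7 CPM in sham vehicle, 52.5 to 86.9 in sham SB, 63.3 to 89.5 in injured vehicle and 55.1 to 98.2 in injured SB libraries, and an interaction of 0.12 ± 0.12. All 4 ranges overlapped for both genes.

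Of the upstream kinases and adaptors, 9 of 17 measured genes had a positive interaction and their median was 0.0039, where 50.5% of all genes were positive and the median of all genes was 0.0011. Traf2 was at 0.23 ± 0.12 and Map3k5 at −0.15 ± 0.11, against 0.049 and 0.026 without the 2 libraries. Leaving out female sham vehicle replicate 1 alone gave 0.12 for Traf2 and −0.031 for Map3k5. Downstream kinases and substrates were positive in 12 of 20 genes (median 0.013), with the transcription factor genes Atf1 at 0.25 ± 0.13 and Mef2d at −0.12 ± 0.074, against 0.28 and −0.033 without the 2 libraries. Among the MAPK phosphatases 3 of 9 were positive (median −0.059), and Dusp7 was at −0.15 ± 0.086 and Dusp8 at −0.10 ± 0.075. The 3 medians were 0.026, −0.0016 and −0.040 without the 2 libraries, and that of the phosphatases was 0.010 without female sham SB replicate 1.

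For immune genes the measured part of each list was small, since the table holds no gene with a mean count under 270.1. In the interferon response list 7 of 9 measured genes (of 26 listed) had a positive interaction, with a median of 0.10, and of 0.093 without the 2 libraries. The median was 0.029 in F1 and M2 alone and −0.12 within M2. Leaving out single libraries gave 0.051 (without female sham vehicle replicate 1) to 0.20 (without male sham SB replicate 1). Its leading genes were Irf9, part of the factor that type I interferon activates, at 0.36 ± 0.17 (unadjusted p = 0.0475, adjusted p = 0.9997, edgeR), and the interferon-induced Ifi27 at 0.28 ± 0.14. Irf9 was at −0.11 within F1 and between 0.57 and 0.68 within the other cohorts. All 5 measured antigen presentation genes (of 15) were positive, with a median of 0.065, against 3 of 5 and 0.035 without the 2 libraries. Its leading genes were the peptide-loading genes Tapbp at 0.16 ± 0.099 and Tap2 at 0.21 ± 0.16, against 0.072 and 0.083 without the 2 libraries. Cytokine and NF-kB genes were positive in 4 of 8 measured genes (of 33), with a median of 0.0007. Here Chuk, a kinase that frees NF-kB, was at 0.11 ± 0.11 and the receptor-associated kinase gene Irak1 at 0.087 ± 0.089.

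Complement genes were lower in the interaction for 6 of 7 measured members, with a median of −0.10, and of −0.15 with 2 of 7 positive when the 2 libraries were left out. The list median was −0.16 within F1 and −0.19 within F2, but 0.041 within M1 and 0.064 within M2. It was −0.034 without female injured vehicle replicate 8 and −0.19 without male sham vehicle replicate 3. C1qc and C1qb encode chains of the initiating complex that microglia produce. They were at −0.21 ± 0.15 and −0.18 ± 0.13 (SE) and negative within each cohort, though barely in some. C1qc was at −0.0099 within M1, and C1qb at −0.0047 within M2. Without female sham SB replicate 3 of F1, the library with the highest C1qc level, C1qc and C1qb were at −0.085 and −0.079. Injured SB libraries had 19.2 to 34.5 CPM of C1qc (median 24.6) and injured vehicle libraries 24.2 to 32.5 (median 26.9). In sham mice C1qc was 26.1 and 26.9 in F1, 29.1 in F2, 25.4 in M1 and 25.5 in M2 with vehicle, and 29.9 and 39.6 in F1, 20.9 in F2, 23.5 in M1 and 25.8 in M2 with SB. The ranges overlapped in both pairs. The widest span was that of sham SB, from 20.9 to 39.6 CPM.

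Homeostatic microglia genes had a median interaction of −0.11 with 3 of 14 positive, and of −0.079 with 3 of 14 positive without the 2 libraries. None had an unadjusted p under 0.05. Csf1r, the receptor on which microglia depend for survival, was at −0.21 ± 0.11 (SE), and Mertk, a receptor for engulfing dying cells, at −0.20 ± 0.12. Without the 2 libraries Csf1r was at −0.12 and Mertk at −0.087. The list median was −0.11 within F1, −0.26 within F2 and −0.15 within M1, but 0.13 within M2. It was −0.044 without female sham vehicle replicate 1 and −0.024 in F1 and M2 alone. The summed level of the 14 genes ran from 1044 to 1284 CPM in injured SB, 1110 to 1436 in injured vehicle, 1123 to 1301 in sham SB and 1096 to 1434 in sham vehicle libraries, and all 4 ranges overlapped. In bulk tissue, fewer cells of a type and less RNA per cell cannot be told apart.

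Reactive astrocyte genes, which share C4b with the complement list, were negative for 8 of 9 measured members (of 20), with a median of −0.12. Without the 2 libraries 9 of 9 were negative, and the median was −0.12. It was −0.027 in F1 and M2 alone, −0.037 with all 58 libraries, −0.30 in the female cohorts and 0.082 in the male cohorts. Leaving out female sham vehicle replicate 9 moved it to −0.075. The cytoskeleton-linked S100a10 was at −0.25 ± 0.14 and the transcription factor gene Stat3 at −0.12 ± 0.084. Without the 2 libraries S100a10 was at −0.23 and Stat3 at −0.050. Within the cohorts the list median was −0.11, −0.20 and −0.038 in F1, F2 and M1, and 0.020 in M2. The list median was −0.11 for SB in injured mice and 0.040 for SB in sham mice.

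**Figure D3:**
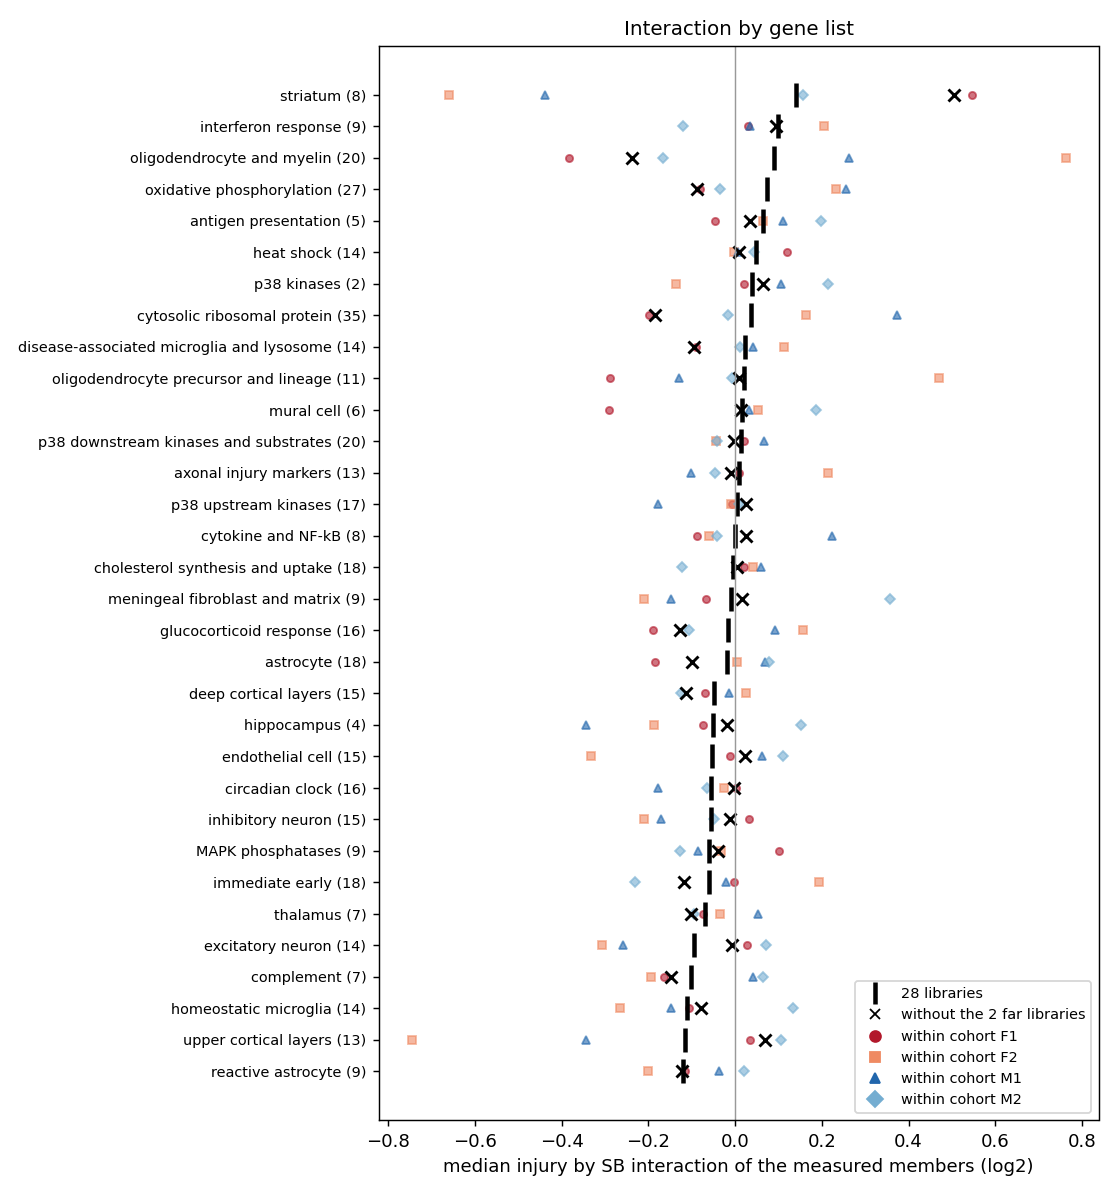
Median interaction (log2) of the measured members of each list with at least 2 of them (number in brackets), over 28 libraries (bars), without the 2 libraries that stand apart (crosses) and within each cohort (symbols). The myelin list moves from 0.089 to −0.24 and its cohorts lie on both sides of 0, while the bar and cross of the reactive astrocyte list both lie at −0.12, with its cohorts between −0.20 and 0.020.

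The oligodendrocyte and myelin list changed sign with a single library. With 28 libraries all 20 measured genes had a positive interaction (median 0.089). Without female sham vehicle replicate 1 of F2, none of the 20 was positive and the median was −0.20. Without both libraries it was −0.24 with 0 of 20 positive, and in F1 and M2 alone it was −0.30. That replicate had a summed level of 23661 CPM over the 20 genes. The other sham vehicle libraries had 7408 and 7386 in F1, 7819 in M1 and 7970 in M2. Sham SB libraries had 9213 and 9052 in F1, 9631 in F2, 7236 in M1 and 7466 in M2, and the injured conditions ran from 7125 to 12163 with vehicle and from 5386 to 9915 with SB.

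Single myelin genes showed the same sham vehicle library at the top. Opalin, a membrane protein gene of mature oligodendrocytes, had 74.2 CPM there, against 15.6 to 32.6 in the other sham vehicle libraries. Car2, a carbonic anhydrase gene of oligodendrocytes, had 373 against 179 to 203. With 28 libraries Opalin was at 0.18 ± 0.22 (SE) and Car2 at 0.10 ± 0.14, and without the 2 libraries they were at −0.26 and −0.11.

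Upper-layer genes moved the other way when the 2 libraries were left out. Upper cortical layer genes were positive in 1 of 13 (median −0.12) with 28 libraries and in 9 of 13 (median 0.069) without the 2. Their median was 0.12 in F1 and M2 alone. Cux2, a transcription factor gene of upper-layer neurons, went from −0.31 ± 0.18 to −0.021, and Mdga1, an adhesion gene of the same layers, from −0.32 ± 0.22 to −0.10. Excitatory neuron genes were positive in 4 of 14 (median −0.094), against 5 of 14 (−0.0076) without the 2 libraries. Camk2a, the synaptic calcium-dependent kinase gene, stood at −0.27 ± 0.15 and then at −8.08e-05, and Slc17a7 at −0.16 ± 0.094 and then at −0.066. Inhibitory neuron genes were positive in 2 of 15 (median −0.055) and then in 7 of 15 (−0.011). Here the calcium buffer gene Pvalb went from 0.26 ± 0.18 to −0.011 and the potassium channel gene Kcnc1 from −0.093 ± 0.099 to 0.023.

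Genes of oxidative phosphorylation and of the cytosolic ribosome depended on both libraries. With all 28, 26 of 27 oxidative phosphorylation genes had a positive interaction (median 0.074), and 3 of 27 (median −0.089) without the 2. Of the ribosomal protein genes 30 of 35 were positive (median 0.037), then 0 of 35 (median −0.18). The ribosomal median was −0.13 in F1 and M2 alone. Leaving out female sham vehicle replicate 1 alone gave 11 of 35, and male sham vehicle replicate 4 alone gave 4 of 35. The summed ribosomal protein level was 8416 and 7834 CPM in these libraries. It was 5181 and 5369 in the F1 and 5704 in the M2 sham vehicle libraries, and 5488 to 6023 in sham SB libraries. The mitochondrial enzyme genes Atp5pb and Ndufv2 were at 0.14 ± 0.10 and 0.13 ± 0.11, then at 0.056 and −0.010. The ribosomal protein genes Rps3 and Rpl3 were at 0.13 ± 0.12 and 0.074 ± 0.095, then at −0.12 and −0.081.

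**Figure D4:**
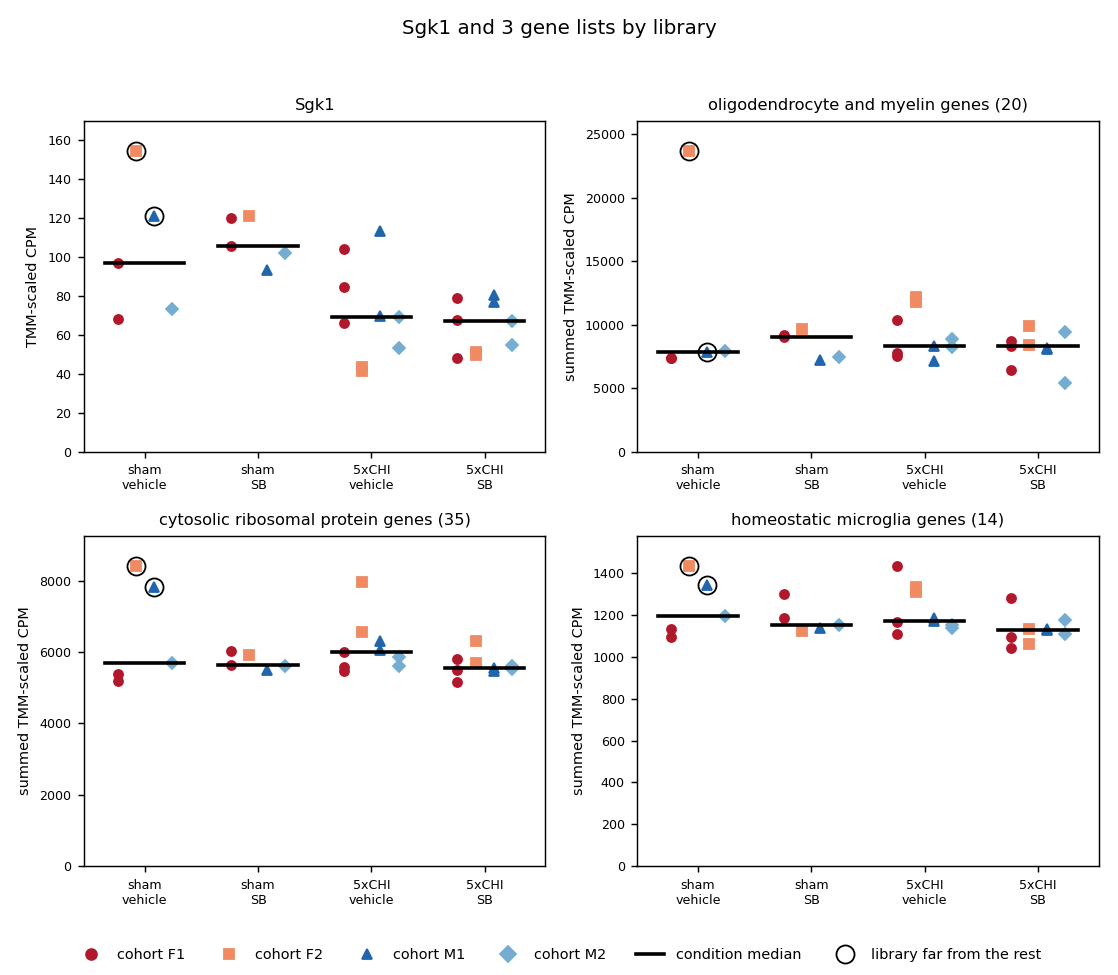
Levels in each of the 28 libraries by condition: TMM-scaled CPM of Sgk1, and summed TMM-scaled CPM of the myelin, ribosomal protein and homeostatic microglia lists (number of measured genes in brackets). Symbols give the cohort, black bars the condition medians and rings the 2 libraries that stand apart. The ringed F2 library holds 23661 CPM of the myelin list. For Sgk1, a gene picked by its difference between injured and sham SB mice, all 9 injured SB points lie below the 5 sham SB points.

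Striatal genes, listed because the striatum lies under the sampled cortex, had a positive interaction in 6 of 8 measured genes (of 14), with a median of 0.14, and in 7 of 8 with a median of 0.51 without the 2 libraries. Leaving out male injured SB replicate 1 alone turned the median to −0.13, and male injured vehicle replicate 6 alone gave 0.30. Female sham vehicle replicate 1 and male sham vehicle replicate 4, each left out alone, gave 0.28 and 0.27. In F1 and M2 alone the median was 0.75. The summed level ran from 459 to 1855 CPM in injured SB, 487 to 942 in injured vehicle, 470.1 to 987 in sham SB and 380.2 to 1042 in sham vehicle libraries. Male injured SB replicate 1 of M2 held the highest value. Rgs9, a regulator of G protein signalling enriched in striatum, stood at 116 CPM in that library and at 10.3 to 51.5 in the other injured SB libraries. Its interaction was 0.54 ± 0.78 (SE), and −0.087 when that library was left out. With the replicate number as a further block it was 3.53, and Rgs9 was among the 3 interaction genes that passed there. Those replicate numbers do not pair the samples. Pdyn, a neuropeptide precursor gene, was at −0.28 ± 0.28, and at −0.053 without the 2 libraries. The part of tissue from the striatum in any result here was not tested.

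Vessel wall genes of the mural cell list were positive in 4 of 6 measured genes (median 0.015), with Vtn, an adhesion protein gene of pericytes, at −0.12 ± 0.11 and the adhesion gene Mcam at 0.11 ± 0.20. Mcam was at −0.23 and Vtn at −0.22 without the 2 libraries. The other 12 lists with at least 2 measured genes had medians between −0.068 and 0.048, and between −0.11 and 0.022 without the 2 libraries. None of their genes had an unadjusted p under 0.05 in the interaction. No red blood cell gene of its list was among the measured genes.

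Immediate early genes, which neuronal activity induces, were positive in 6 of 18 (median −0.060), and in 6 of 18 (median −0.12) without the 2 libraries. The median was −0.29 without male sham vehicle replicate 3 and 0.049 with all 58 libraries. Npas4, an activity-induced transcription factor gene of neurons, had the smallest p among them at 0.55 ± 0.32 (SE), and 0.80 without the 2 libraries. It was 0.30 without male sham vehicle replicate 3 of M2. Its levels were 24.5 and 10.7 CPM in F1, 24.0 in F2, 11.7 in M1 and 30.1 in M2 in sham vehicle mice. In sham SB mice they were 15.4 and 13.9 in F1, 31.7 in F2, 18.3 in M1 and 16.0 in M2. Injured vehicle libraries spanned 9.68 to 65.7 (median 21.0) and injured SB libraries 19.4 to 58.3 (median 29.5), with full overlap. Egr4, a zinc finger factor gene of the same class, was at −0.35 ± 0.23.

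The glucocorticoid response list had a median interaction of −0.017 with 6 of 16 positive, and of −0.13 with 3 of 16 positive without the 2 libraries. Its median was −0.14 in F1 and M2 alone. Errfi1, a feedback inhibitor of growth factor receptors, was at −0.12 ± 0.084 and the mineralocorticoid receptor gene Nr3c2 at −0.11 ± 0.097. Along the injury factor 13 of 16 genes were lower in injured than in sham mice, both with vehicle (median −0.087) and with SB (median −0.15). Of all genes, 51.7% were higher after injury with vehicle and 47.4% with SB. With the 2 libraries left out, 13 of 16 were lower again in SB mice (median −0.15), while in vehicle mice 7 of 16 were higher (median −0.0048). In SB mice 4 of the 16 had an unadjusted p under 0.05, against 3.76% of all genes. In vehicle mice 3 of the 16 did, against 2.38% of all genes, and none passed after adjustment in either.

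Sgk1, a kinase gene that glucocorticoids induce, had the smallest p among genes lower in injured than in sham SB mice. Sham SB libraries had 119.9 and 106 CPM in F1, 121 in F2, 93.5 in M1 and 102 in M2. Injured SB libraries had 48.3 to 80.4, with a median of 67.0, so that all 9 lay below all 5 sham SB libraries. Because Sgk1 was picked by this same comparison, the separation is a description only. How many other genes separate in this way was not counted. Sham vehicle libraries were spread more widely, at 67.9 and 97.0 in F1, 154 in F2, 121 in M1 and 73.3 in M2, and injured vehicle libraries spanned 41.3 to 113 with a median of 69.2. The vehicle ranges overlapped, with 4 of 9 injured libraries below all sham libraries. The injury difference of Sgk1 was −0.79 ± 0.19 (SE) in SB mice (unadjusted p = 3.31e-04, adjusted p = 0.999, edgeR) and −0.55 ± 0.19 in vehicle mice. The interaction between these was −0.24 ± 0.28 (p = 0.402, adjusted p = 0.9997, edgeR). The 2 highest sham vehicle values came from the 2 libraries that stand apart. Without them the injury difference was −0.79 ± 0.16 in SB mice (adjusted p = 0.288, edgeR) and −0.13 ± 0.20 in vehicle mice, and the interaction was −0.66 (unadjusted p = 0.0204, adjusted p at least 0.998, edgeR). Within the cohorts the interaction was −0.86 in F1, 0.60 in F2, 0.20 in M1 and −0.48 in M2.

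The 2 drug differences behind the interaction were of unequal precision. The SB difference had a median SE of 0.066 in injured mice (9 against 9) and of 0.089 in sham mice (5 against 5). Neither gave a gene past the adjusted threshold (0 of 9636, 0% in each). At an unadjusted p under 0.05 the injured comparison had 176 genes (1.83%) and the sham comparison 804 (8.34%), 476 of them higher and 328 lower. The sham count moved with the libraries left out. It was 1621 without female sham vehicle replicate 9, which was not called apart. Without male sham vehicle replicate 4 it was 188, without female sham vehicle replicate 1 it was 652, and without both it was 137. The part of having fewer sham libraries in this was not tested. The injured count was 409 without both, above the sham count, and with all 58 libraries the counts were 822 in injured and 686 in sham mice. The standard deviation of the sham log2 differences over all genes was 0.12, and 0.088 without both libraries, against 0.068 in injured mice. DESeq2 and limma voom also called 0 genes in either, with 199 and 525 genes at unadjusted p under 0.05 in injured mice and 867 and 466 in sham mice.

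In injured mice the genes of smallest p for SB were Foxn2 and the zinc finger gene Mynn (0.18 ± 0.054) on the higher side, and Gemin8 (−0.23 ± 0.062), a gene of the complex that assembles splicing particles, and Bex4 (−0.31 ± 0.091) on the lower side. In sham mice they were Gfod1 (0.36 ± 0.093) and Lingo1 (0.31 ± 0.084), and Nudt16 (−0.41 ± 0.11), a nucleotide hydrolase gene, and Clk4. Gfod1 was at 0.23, Lingo1 at 0.18, Nudt16 at −0.22 and Clk4 at −0.23 without the 2 libraries. None passed after adjustment.

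For the ribosomal protein genes none passed after adjustment in either comparison. With 28 libraries SB stood lower than vehicle for 35 of 35 genes in injured mice (median −0.12), with 7 at an unadjusted p under 0.05 (1.83% of all genes), and for 34 of 35 in sham mice (median −0.16), with 7 (8.34% of all genes). In F1 and M2 alone the injured median was −0.037. Female injured vehicle replicate 9 of F2, which that fit leaves out, had the highest summed level of the injured vehicle libraries, 7949 CPM against a median of 5998. Its part in the injured difference was not tested. The sham median was 0.041, with 25 of 35 higher, when the 2 libraries were left out. For the myelin list the medians were −0.13 in injured mice (19 of 20 lower) and −0.23 in sham mice (20 of 20 lower), and 0.087 in sham mice without the 2 libraries. For upper-layer genes they were 0.076 and 0.17, and −0.036 in sham mice without the 2 libraries.

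Across the 9636 genes, the SB difference in sham mice and that in injured mice, which share no library, had a Pearson correlation of 0.52, and 69.6% of genes had the same sign in both. Without the 2 libraries the correlation was −0.074 with 47.4% of the same sign. In F1 and M2 alone it was −0.0013. Taken within single cohorts it was 0.24 in F1, 0.49 in F2, 0.32 in M1 and 0.51 in M2. These values describe genes, which are not independent replicates and which share libraries and normalization.

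**Figure D5:**
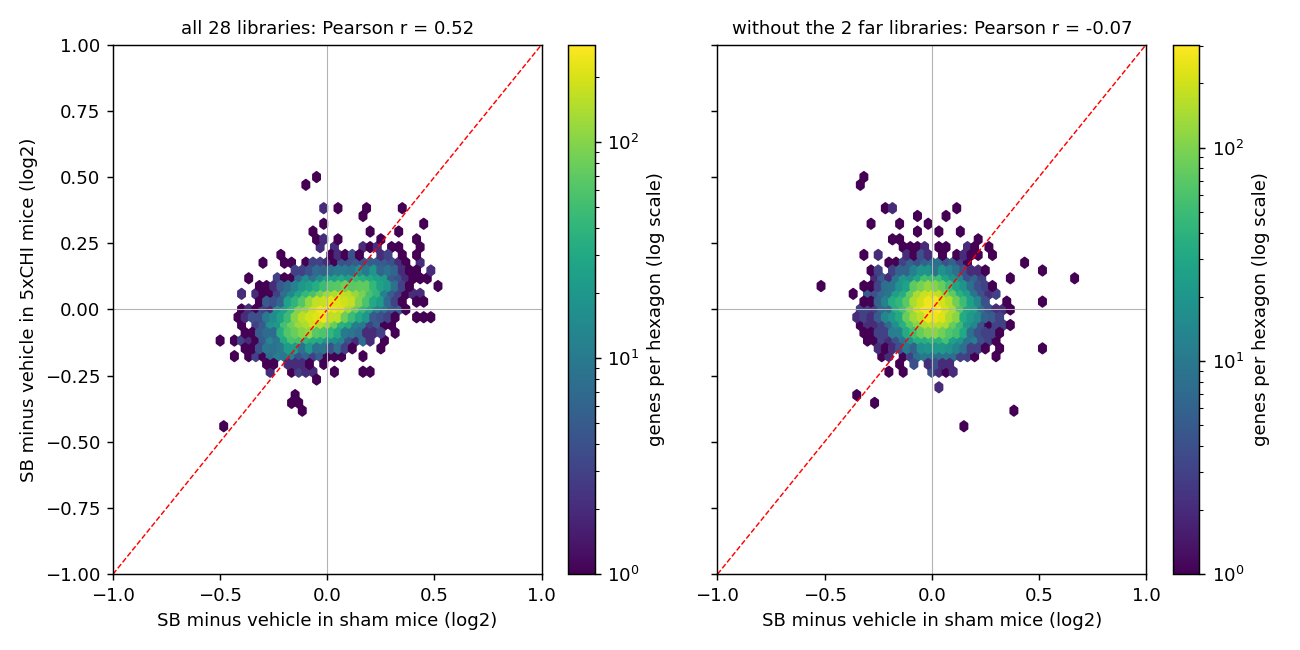
SB minus vehicle (log2) in injured mice against the same difference in sham mice for 9636 genes, as hexagons coloured by the number of genes on a log scale, with all 28 libraries (left) and without the 2 libraries that stand apart (right). The dashed red line marks equal differences, on which the interaction is 0. The cloud is tilted on the left, with a Pearson correlation of 0.52, and round on the right, with −0.074.

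Read along the injury factor, 0 genes passed in vehicle mice and 0 in SB mice (0% in each), with 229 (2.38%) and 362 (3.76%) at an unadjusted p under 0.05. DESeq2 and limma voom called 0 genes as well, with 254 and 300 at an unadjusted p under 0.05 in vehicle mice and 411 and 747 in SB mice. The genes of smallest p in vehicle mice were Tbc1d31 (0.44 ± 0.11) and Marveld1 (0.33 ± 0.098), both higher after injury. On the lower side were Asic1 (−0.22 ± 0.061), an acid-sensing ion channel gene, and Lfng (−0.35 ± 0.10), which modifies Notch receptors. In SB mice they were Foxn2 and Clk4 (0.29 ± 0.070), and Sgk1 and Arhgef3 (−0.23 ± 0.064). In vehicle mice Tbc1d31 was at 0.33, Marveld1 at 0.19, Asic1 at −0.15 and Lfng at −0.15 when the 2 libraries were left out. None of these genes passed after adjustment.

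The interaction within single cohorts spread more widely in F2 and M1, the cohorts of the 2 libraries that stand apart. Its standard deviation over all genes was 0.17 in F1, 0.36 in F2, 0.32 in M1 and 0.18 in M2, and 3, 145, 55 and 5 genes exceeded 1 log2 unit. Between cohorts, which share no library, the correlation of the interaction across genes was −0.46 for F1 and F2, −0.30 for F1 and M1, and −0.0074 for F1 and M2. It was 0.34 for F2 and M1, −0.18 for F2 and M2, and 0.061 for M1 and M2. These are descriptions over genes. The one positive value above 0.1 joined the 2 cohorts whose sole sham vehicle libraries stand apart. Those libraries were picked as extremes of the same data, so the wider spread and this value are descriptions only. Their cause was not tested.

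The interaction in males minus that in females gave 0 genes past the threshold (0%), 211 (2.19%) at an unadjusted p under 0.05, and 655 without the 2 libraries. DESeq2 called 0 with 242 at an unadjusted p under 0.05, and limma voom 0 with 756. The median SE was 0.23, and the 95% interval lay within a 1.5-fold change for 42.7% of genes. Zic2, a zinc finger transcription factor gene of brain development, had the smallest p at 1.03 ± 0.26 (SE; adjusted p = 0.999, edgeR), and 1.02 without the 2 libraries. Its interaction was −0.22 and −0.74 in F1 and F2, and 0.67 and 0.53 in M1 and M2. In sham vehicle mice Zic2 stood at 8.58 and 9.26 CPM in F1, 7.54 in F2, 13.1 in M1 and 12.9 in M2, so the male values lay above the female ones. In sham SB mice it stood at 9.88 and 9.96 in F1, 12.0 in F2, 10.0 in M1 and 10.6 in M2, with the sexes overlapping.

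Ahi1, a gene of the primary cilium, had a male minus female difference of 0.67 ± 0.19 (SE). Mief1, which takes part in mitochondrial fission, was at −0.49 ± 0.14, and the protein phosphatase gene Ppm1l at −0.51 ± 0.17. For each of these, as for Zic2, the female cohorts had one sign and the male cohorts the other. Because these genes were picked by this same difference, the split of signs is a description only. None passed after adjustment. Foxn2 differed between the sexes by −0.024 ± 0.20.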

How the data were processed

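The authors' deposited raw counts per gene (9636 genes) were used for the 28 libraries of the complete cohorts. The submitters' processing notes name the tools STAR, featureCounts and DESeq2 and the build GRCm39/mm39. They give no versions, strand setting or rule for leaving out low genes (the smallest count is 101), and near-identical or overlapping genes may share counts. Counts were fitted in R 4.3.3 with edgeR 4.0.16 (TMM, robust quasi-likelihood test, cohort as a block, 7 coefficients, 21 residual degrees of freedom; 10 and 18 for the sex difference), two-sided, with Benjamini-Hochberg adjustment over all genes at 0.05. The filterByExpr filter removed 0 genes. The biological coefficient of variation was 0.110. Standard errors are the log2 fold change over the t value of the same p. Values within cohorts are differences of mean log2 CPM (prior count 2), with no test. No 2 libraries of a condition agreed within sampling noise (chi-square over its degrees of freedom at least 9.83). DESeq2 1.42.0 and limma 3.58.1 served as alternatives. The fit was also run on simulated counts with the same spread for all genes and no cohort differences or libraries that stand apart. That run cannot show how the fit handles such libraries.

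The genes named are the 10 of smallest p in each direction for the interaction, the 3 largest per direction with 1 sign in all cohorts, the 2 of smallest p per direction for the other comparisons, Mapk14 and Mapk11, and 2 members of smallest interaction p from each list named. One list member under this rule is not reported here, and the next by p is given. Other members stand as markers only. The members, the 34 lists and the rules were chosen with earlier results of these data known. No set was tested. The alternatives were DESeq2 size factors, upper quartile scaling, no filter, a mean count of at least 1000, no cohort term, equal weight per cohort, a replicate block, all 58 libraries, single sexes, and each cohort or library left out. Leaving out the 2 libraries that stand apart, and F1 with M2 only, were added after seeing the data.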

Additional observations from a re-analysis of the deposited data

Results flagged for a closer look

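In 11 of 168 sets of values examined, each over the 9 or 5 libraries of 1 condition, the highest or lowest sample stood apart from the rest by Dixon's criterion, where chance gives about 1 in 20. The value of a list is the mean log2 CPM of its measured genes. Tex10 was low in male injured SB replicate 1, at 16.3 CPM among injured SB mice, and in female sham SB replicate 2, at 20.0 CPM among sham SB mice. The complement list was high in female injured SB replicate 9, at 5.54, and the reactive astrocyte list in the same library, at 5.46. The inhibitory neuron list was low in female injured SB replicate 7, at 6.21, and the mural cell list high in male injured vehicle replicate 5, at 5.13. Female injured vehicle replicate 9 was low for the p38 upstream kinases (5.77) and high for oxidative phosphorylation (6.95) and the cytosolic ribosomal proteins (7.60). Male sham vehicle replicate 4 was low for the p38 upstream kinases, at 5.75. Female sham vehicle replicate 1 was high for the oligodendrocyte and myelin list, at 8.52.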

How the results depend on the processing

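Counts of genes past the adjusted threshold were 0 in each comparison with the exceptions given here. With the replicate number as a further block, the counts were 3 for the interaction, 3 for SB in injured mice, 2 for injury in vehicle mice, 1 for injury in SB mice and 1 for the sex difference. The numbers do not pair the samples: the deviations of 13 same-numbered pairs correlated between −0.49 and 0.51 (median −0.044), and 3 of 17 libraries with such a partner correlated best with it. With equal weight per cohort, 628 genes passed for SB in sham mice and 96 for injury in vehicle mice; most sham cells then hold a single library and add nothing to the spread. Without cohort F1, 22 passed for SB in sham mice. Leaving out single libraries gave 0 to 1 for injury in SB mice and 582 to 1176 genes of 1 sign in all cohorts (813 with all). Genes at unadjusted p under 0.05 in the interaction ran from 77 (without male sham SB replicate 2) to 356 (without female sham vehicle replicate 9), and for SB in sham mice from 188 (without male sham vehicle replicate 4) to 1621 (without female sham vehicle replicate 9).

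Of 65 genes named for the interaction, 36 kept their sign throughout and 29 did not. The cause of each reversal was not tested. With the replicate block, Atf1 was −0.17, Chuk −0.043, Irak1 −0.16, Irf9 −0.18, Mapk11 −0.25, Npas4 −0.32, Nr3c2 0.025, Pnn −0.037 and Vtn 0.0078. With F1 and M2 only, Camk2a was 0.059, Car2 −0.082, Cux2 0.021, Kcnc1 0.0027, Map3k5 0.057, Mapk14 0.0027, Mcam −0.35, Mdga1 0.016, Opalin −0.40, Pdyn 0.056, Rpl3 −0.040, Rps3 −0.083 and Tap2 −0.032. With all 58 libraries, Car2 was −0.089, Dusp8 0.016, Egr4 0.059, Mapk14 0.0093, Mcam −0.073, Opalin −0.032 and Vtn 0.078. In females only, Chuk was −0.029, Errfi1 0.0053, Irak1 −0.042, Kcnc1 0.024, Mapk11 −0.037, Mcam −0.0067, Opalin −0.027 and Tapbp −0.064. In males only, Pvalb was −2.38e-04 and Vtn 0.14. Without F2, Car2 was −0.010, Mcam −0.046 and Opalin −0.033. Without M1, Irak1 was −0.0086, Kcnc1 0.0024, Mcam −0.070 and Opalin −0.027, and without F1 Vtn was 0.014. Without the 2 libraries that stand apart, Car2 was −0.11, Kcnc1 0.023, Map3k5 0.026, Mcam −0.23, Ndufv2 −0.010, Nr3c2 1.04e-04, Opalin −0.26, Pvalb −0.011, Rpl3 −0.081 and Rps3 −0.12. With limma voom, Kcnc1 was 0.0024, Mcam −0.042, Rpl3 −0.030 and Rps3 −0.024. Leaving out single libraries gave −0.069 to 0.15 for Car2, −0.16 to 0.20 for Mcam and −0.11 to 0.31 for Opalin (lowest without female sham vehicle replicate 1), −0.0079 to 0.12 for Rpl3 (lowest without male sham vehicle replicate 4) and −0.087 to 0.81 for Rgs9 (lowest without male injured SB replicate 1).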
